A study of Mus musculus with 12 samples.

Results

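The genes of the respiratory chain and ATP synthase were followed by complex in liver that lost *Cdk1*. They were the rows of the expression table whose symbols begin with Nduf followed by a, b, c, s or v and a digit, are Sdha to Sdhd, begin with Uqcr, Cox4 to Cox8 or Atp5, or name a protein-coding gene of mitochondrial DNA. The rule found 97 of the 47069 genes listed, 84 of them nuclear and 13 encoded by mitochondrial DNA, after 4 rows of pseudogenes were left out. *Cdk1* Liv-/- mice carry *Cdk1* flox/flox and a Cre recombinase driven by the Albumin promoter, which is active in hepatocytes, and were compared with wild type (WT) mice of the same age, P14, meaning postnatal day 14. Polyadenylated RNA came from isolated hepatocytes or from whole liver, with 3 libraries in each of the 4 groups. Neither the strain nor whether the WT mice carried the floxed allele or Cre is given in the labels. Nothing in the labels says that the 3 libraries of a group came from separate mice, although the study's methods name biological replicates, so p-values measure the spread between these samples.

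The respiratory chain sits in the inner mitochondrial membrane and couples electron transfer to proton pumping. Complex I (Nduf and mt-Nd genes) takes electrons from NADH, complex II (Sdh genes) from succinate, complex III (Uqcr genes and mt-Cytb) passes them from ubiquinol to cytochrome c, complex IV (Cox genes and mt-Co1 to mt-Co3) passes them to oxygen, and complex V (Atp5 genes, mt-Atp6 and mt-Atp8) makes ATP from the proton gradient. Every complex except complex II mixes subunits from both genomes, and hepatocytes are rich in mitochondria. Ndufa4 and its relative Ndufa4l2 were placed with complex IV, to which the NDUFA4 protein belongs. The symbols do not take every subunit. Cyc1 and Ndufab1, for instance, have other names and are not among the 97. Among the 84 nuclear genes, 73 encode the subunits of liver and 11 are isoforms of other tissues or related genes, such as Cox7a2l, a factor that joins complexes III and IV, and Atp5s and Atp5sl.

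Values are FPKM, fragments scaled to transcript length and to the mapped reads of the library, as deposited. A gene was tested if its mean FPKM over the 12 libraries was at least 0.1, on log2(FPKM + 0.5) with limma, and was called at a Benjamini-Hochberg adjusted p of at most 0.1 over all 17386 genes tested. This scale understates the change of weakly expressed genes. Of the members, 81 nuclear and all 13 mitochondrially encoded genes were tested. Cox7b2, Cox8b and Cox8c were below the filter, with Cox7b2 and Cox8c listed at 0 in every library.

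Depth and identity of the libraries bear on these genes as follows. An FPKM of 1 on 1 kb of transcript stood for an estimated 34.9 to 50.02 reads, so that Sdhb rested on at least 3699 estimated reads in every library, Cox6b2 on at least 40.6 and Cox7a1 on at least 24.1. *Cdk1* itself fell from 25.5 ± 4.41 to 9.45 ± 2.47 FPKM in hepatocytes and from 23.2 ± 1.95 to 12.6 ± 1.35 FPKM in whole liver (SD, n = 3 each), with adjusted p = 0.0148 and 0.00353 from limma. WT hepatocyte replicate 3 correlated most closely with a whole liver library (Pearson r = 0.989 across genes), and its summed erythroid markers stood at 583 FPKM against 109 and 148 in the other WT hepatocyte libraries. *Cdk1* Liv-/- whole liver replicate 3 had 158 FPKM of Xist and none of Ddx3y, unlike the other 11 libraries, although the methods describe male mice. All 8 hepatocyte markers were present in every group. Their summed FPKM was 80504 to 89295 in WT and 54241 to 58158 in *Cdk1* Liv-/- hepatocytes. In whole liver it was 81758 to 85099 in WT and 59826 to 65137 in *Cdk1* Liv-/-. Alb made up most of these sums, at 60008 to 64298 FPKM in WT and 39898 to 44890 FPKM in *Cdk1* Liv-/- hepatocytes. Whole liver held 56843 to 61172 FPKM of Alb in WT and 43328 to 47348 FPKM in *Cdk1* Liv-/-. In whole liver, the summed FPKM of 8 stellate cell and fibroblast markers was 415 to 471 in WT and 758 to 994 in *Cdk1* Liv-/-, and that of 6 cholangiocyte markers was 45.9 to 62.2 and 139 to 270. The lists of Kupffer cells and macrophages, at 307 to 359 in WT and 421 to 604 in *Cdk1* Liv-/-, and of monocytes and neutrophils, at 43.8 to 70.3 and 89.9 to 302, did not overlap there either. In hepatocytes, the stellate cell list was at 113 to 372 FPKM in WT and 95.1 to 111 in *Cdk1* Liv-/-, and the cholangiocyte list was at 14.6 to 30.1 and 66.8 to 124. The lists of sinusoidal endothelial cells (68.5 to 183 in WT, 31.3 to 46.5 in *Cdk1* Liv-/-), erythroid cells (109 to 583 and 24.7 to 100.4) and lymphocytes (2.97 to 8.63 and 2.25 to 2.5) were likewise apart in hepatocytes. No marker of these lists was at 0 in all libraries, but some sums rested on few genes. In hepatocytes, 1 of the 6 cholangiocyte markers averaged at least 1 FPKM in WT and 2 in *Cdk1* Liv-/-. Of the 7 lymphocyte markers, 1 did so in each of these groups. The part of these shifts in the changes of the respiratory chain was not tested, and in bulk RNA fewer cells of a type and less RNA per cell cannot be told apart.

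In WT liver the nuclear subunits spanned a wide range of steady levels. Over the 73 liver subunits the mean FPKM ran from 12.2 to 939 with a median of 140 in WT hepatocytes, and from 13.1 to 1047 with a median of 150 in WT whole liver. Medians were higher from complex I to complex IV. In WT hepatocytes they were 87.8 FPKM for the 35 genes of complex I, 150 for the 4 of complex II, 223 for the 8 of complex III, 278 for the 11 of complex IV and 210 for the 15 of complex V. The highest level was that of Atp5b, the catalytic beta subunit of ATP synthase, and the lowest was that of Atp5g2, which encodes 1 of the 3 forms of the c-ring subunit and shares sequence with a pseudogene, as described further on.

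Sequences of promoters are shown for 3 members, because the isoform pair Cox6b1 and Cox6b2 differed in its response and because Sdhb holds a motif described below. They run from 250 bases before to 50 after the annotated start, 5′ to 3′ in the direction of the gene, from RefSeq on GRCm38.p6. Cox6b1 lies at chr7:30626065-30626364 on the minus strand, Cox6b2 at chr7:4753045-4753344 on the minus strand and Sdhb at chr4:140961021-140961320 on the plus strand. Capitals mark the motif found.
Cox6b1: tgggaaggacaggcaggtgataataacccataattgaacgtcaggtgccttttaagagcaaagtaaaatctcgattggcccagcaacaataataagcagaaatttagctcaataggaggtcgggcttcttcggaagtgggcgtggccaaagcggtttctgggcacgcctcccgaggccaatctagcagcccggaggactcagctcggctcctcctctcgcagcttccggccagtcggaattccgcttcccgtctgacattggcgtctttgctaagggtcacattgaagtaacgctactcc
Cox6b2: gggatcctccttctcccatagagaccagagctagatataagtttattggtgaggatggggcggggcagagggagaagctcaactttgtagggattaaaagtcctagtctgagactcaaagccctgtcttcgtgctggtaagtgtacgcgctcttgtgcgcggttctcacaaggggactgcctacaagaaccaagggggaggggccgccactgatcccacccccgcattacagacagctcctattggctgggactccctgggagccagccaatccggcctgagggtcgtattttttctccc
Sdhb: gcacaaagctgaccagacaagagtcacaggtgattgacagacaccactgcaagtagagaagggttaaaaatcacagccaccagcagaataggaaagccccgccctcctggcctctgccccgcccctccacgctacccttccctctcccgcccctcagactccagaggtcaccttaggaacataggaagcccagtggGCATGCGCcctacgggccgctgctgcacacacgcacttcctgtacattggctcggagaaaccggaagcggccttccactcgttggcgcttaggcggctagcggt

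Nuclear respiratory chain genes are textbook targets of NRF1, of ETS factors such as GABPA and of YY1. Promoters of 69 of the 84 nuclear genes were listed and searched on both strands. The motifs were GCGCATGC, the core of the NRF1 motif, CCGGAAGT, an ETS motif, and AAGATGGC, a YY1 motif. The NRF1 core was found in 10 of the 69 (14.5%) against 3.05% of 27025 genes, the YY1 motif in 11 (15.9%) against 3.19%, and the ETS motif in 5 (7.25%) against 4.31%. Any of the 3 was present in 25 of the 69, and the matching share of all genes was not counted. In the promoters printed above, the NRF1 core occurred in that of Sdhb on the minus strand, and none of the 3 motifs occurred in those of Cox6b1 and Cox6b2. These matches describe letters in a window and not bound sites.

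In whole liver, most nuclear subunits were lower in *Cdk1* Liv-/- than in WT mice. Of the 81 tested, 55 fell and 3 rose, where 7.53% of all genes tested were called lower and 38% higher. The median log2 fold change of the nuclear members was -0.26, a level 16.5% lower, against 0.18 for all genes tested. The deposited values of all genes together were thus shifted upwards in this comparison. Dividing FPKM by median-ratio size factors, which by construction centre the typical gene near 0, put the median of all genes at 0.01. On that scale 73 nuclear members were called lower and 2 higher, with a median of -0.48, and 16.4% of all genes were lower and 17.9% higher. In 61 of the 81 the *Cdk1* Liv-/- group was entirely below the WT group, against 8.94% of all genes, and in 3 it was entirely above, against 43.2%. The part of the hepatocyte marker levels given above in this decrease was not tested.

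Every complex contributed to the decrease in whole liver. Complex III fell throughout, with all 8 genes called lower. In complex V 13 of 17 were called lower, in complex II 3 of 4, in complex I 23 of 35 and in complex IV 8 of 17, a set that includes 6 isoforms and relatives that are not the standard subunits of liver. The median log2 fold change was -0.24 for complex I, -0.35 for complex II, -0.28 for complex III, -0.13 for complex IV and -0.33 for complex V.

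**Figure D1:**
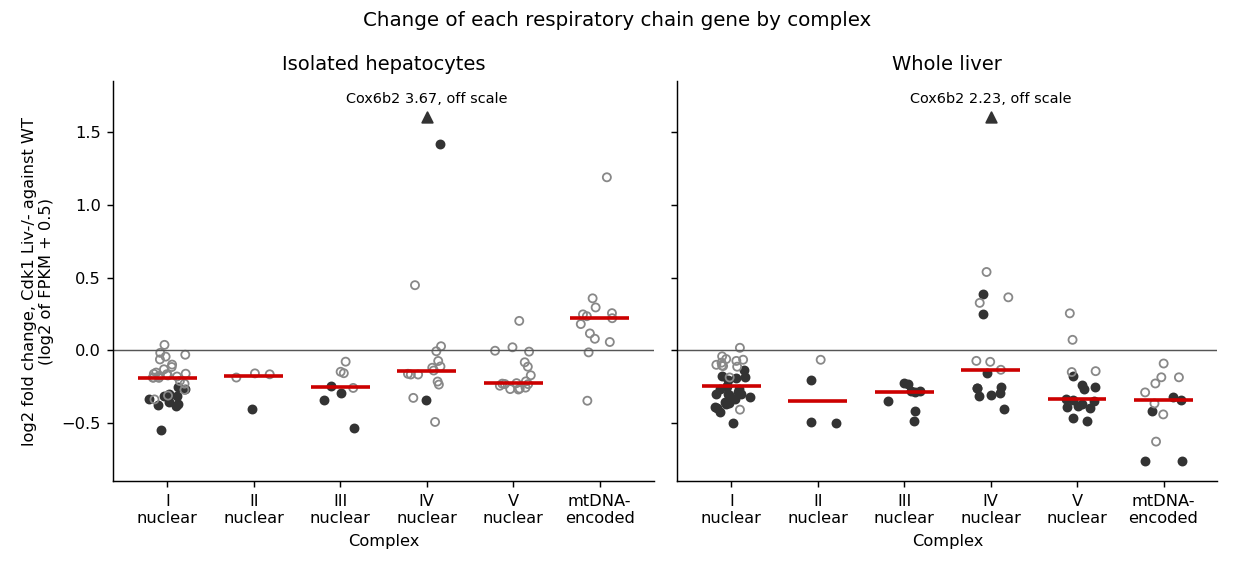
Log2 fold change of each tested gene, *Cdk1* Liv-/- against WT, in isolated hepatocytes (left) and whole liver (right), with nuclear genes split by complex and the 13 mitochondrially encoded genes in the last column. Filled points are called, open points are not, red bars are medians and triangles mark Cox6b2, which lies off the scale; the mitochondrially encoded genes have a median of 0.22 in hepatocytes and -0.34 in whole liver.

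Ndufb10, an accessory subunit of the membrane arm of complex I (chromosome 17, 24722060 to 24724478 on the minus strand, GRCm38), was at 152, 144 and 147 FPKM in the WT and at 100, 109 and 103 FPKM in the *Cdk1* Liv-/- whole liver libraries. The groups were well apart. Its log2 fold change of -0.50 (SE 0.05, adjusted p = 0.00293 from limma) was the lowest of complex I. Ndufs1, the large iron-sulfur subunit of the electron input module, was at 63.8, 63.3 and 64.3 FPKM in WT and at 53.9, 52.5 and 50.4 FPKM in *Cdk1* Liv-/- livers, a log2 fold change of -0.29 (adjusted p = 0.00796 from limma). Ndufv1, which carries the NADH site, fell likewise by 0.30 on the log2 scale (adjusted p = 0.0195 from limma). At the other end of complex I, Ndufa2 had a log2 fold change of 0.02 (adjusted p = 0.864 from limma), which turned to -0.20 and was called lower with size factors.

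Complex II showed its decrease in 3 of its 4 genes. Sdhb, the iron-sulfur subunit, was at 152, 141 and 144 FPKM in WT and at 105, 100 and 104 FPKM in *Cdk1* Liv-/- whole liver, so the groups were separated by a wide gap. Its log2 fold change was -0.49 (SE 0.05, adjusted p = 0.00264 from limma). Sdhd, a membrane anchor, was at 220, 219 and 205 FPKM in WT and at 149, 151 and 155 FPKM in *Cdk1* Liv-/- livers, a log2 fold change of -0.50 (SE 0.05, adjusted p = 0.00255 from limma). Sdha, the flavoprotein that oxidises succinate, fell less, by 0.21 on the log2 scale (adjusted p = 0.0399 from limma). Sdhc, the other anchor, had a log2 fold change of -0.07 (adjusted p = 0.342 from limma).

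In complex III, Uqcrb, a small subunit near the ubiquinone site, was at 364, 363 and 336 FPKM in WT and at 246, 255 and 257 FPKM in *Cdk1* Liv-/- whole liver. No library of one group reached the other group. Its log2 fold change was -0.49 (SE 0.06, adjusted p = 0.00356 from limma). The core protein gene Uqcrc1 and the Rieske iron-sulfur protein gene Uqcrfs1 fell by 0.23 and 0.28 on the log2 scale (adjusted p = 0.0180 and 0.0112 from limma), and Uqcrh, with the smallest change of the complex, by 0.23 (adjusted p = 0.0546 from limma).

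In complex IV, Cox5a, a nuclear subunit, was at 216, 226 and 214 FPKM in WT and at 172, 189 and 187 FPKM in *Cdk1* Liv-/- whole liver. Its log2 fold change was -0.26 (adjusted p = 0.0209 from limma). Cox7b fell most, by 0.40 (adjusted p = 0.00463 from limma). Cox4i1, the largest nuclear subunit, was at 417, 410 and 414 FPKM in WT and at 373, 409 and 393 FPKM in *Cdk1* Liv-/-, and its log2 fold change of -0.08 was not called (adjusted p = 0.315 from limma).

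In complex V, the catalytic subunit gene Atp5b was at 1058, 1053 and 1030 FPKM in WT and at 769, 802 and 812 FPKM in *Cdk1* Liv-/- whole liver. The groups did not overlap, and the log2 fold change was -0.40 (SE 0.06, adjusted p = 0.00718 from limma). Its partner Atp5a1 fell by 0.39 (adjusted p = 0.00547 from limma). Atp5k, which encodes the small membrane subunit e, fell most, from 264, 252 and 241 FPKM to 184, 180 and 177 FPKM, a log2 fold change of -0.48 (SE 0.05, adjusted p = 0.00322 from limma). The c-ring genes Atp5g1 and Atp5g3 fell by 0.38 and 0.18 (adjusted p = 0.00614 and 0.0693 from limma), and Atp5g2, the largest value of the complex, had a log2 fold change of 0.25 that was not called (adjusted p = 0.158 from limma).

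**Figure D2:**
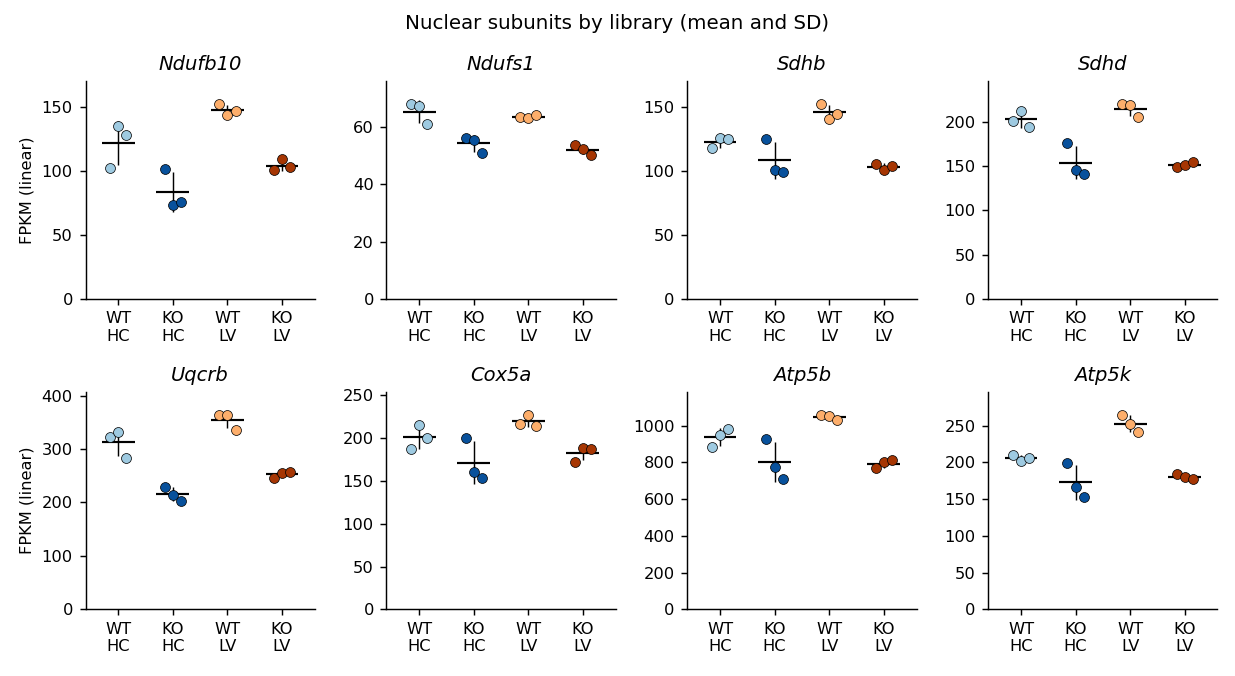
FPKM on linear axes of 8 nuclear subunits in each library, with the mean as a horizontal bar and the SD as a vertical line (n = 3). WT and KO stand for WT and *Cdk1* Liv-/-, HC for isolated hepatocytes and LV for whole liver; Ndufb10 runs from 144 to 152 FPKM in WT LV and from 100 to 109 FPKM in KO LV.

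In isolated hepatocytes the nuclear members also lay lower in *Cdk1* Liv-/- mice, but fewer passed the test. Of the 81, 74 had a log2 fold change below 0, 18 were called lower and 2 higher, where 6.61% of all genes tested were called lower and 12.1% higher. The median was -0.19 against 0.05 for all genes, and -0.26 against -0.001 with size factors. The calls came from complexes I (12 of 35) and III (4 of 8), with 1 of 4 in complex II, 1 of 17 in complex IV and 0 of 17 in complex V. In complex V 4 genes were lower at an unadjusted p under 0.05, as were 1913 of all 17386 genes, and 3 by a two-sample test with q-values, as were 8.12% of all genes. Its median was -0.23, and with size factors 2 of its genes were called lower, where 8.13% of all genes were lower and 9.83% higher on that scale. Of the 18 called lower, 16 were also called lower in whole liver. That is 88.9% of the hepatocyte and 29.1% of the whole liver calls. Among all 81 nuclear members, 67.9% were called lower in whole liver. The same overlap was not counted over all genes.

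The *Cdk1* Liv-/- hepatocyte libraries were unequal. Relative to the WT mean, the median log2 ratio of the nuclear members was -0.02 in replicate 1, -0.26 in replicate 2 and -0.30 in replicate 3, so replicate 1 sat at the WT level as a whole. In whole liver the 3 *Cdk1* Liv-/- libraries lay at -0.27, -0.25 and -0.24. The calls in hepatocytes were at the edge of the threshold, with adjusted p from limma running from 0.0196 up to the threshold itself. Omitting WT replicates 1, 2 and 3 in turn left 3, 1 and 5 of the 81 called lower, where 2.31%, 7.04% and 4.39% of all genes were. Omitting replicates 1, 2 and 3 of *Cdk1* Liv-/- left 26, 2 and 1, where 3.82%, 3.72% and 2.86% of all genes were called lower. The share of the members was below that of all genes without WT replicate 2 and without *Cdk1* Liv-/- replicates 2 or 3, while the log2 fold change of all 18 genes stayed below 0 each time.

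Uqcrb gave the lowest adjusted p among the genes that fell in hepatocytes. It was at 323, 331 and 283 FPKM in WT and at 229, 214 and 203 FPKM in *Cdk1* Liv-/- hepatocytes, with no overlap. Its log2 fold change was -0.54 (SE 0.09, adjusted p = 0.0196 from limma). Ndufb10 was at 102, 135 and 128 FPKM in WT and at 101, 73.3 and 75.6 FPKM in *Cdk1* Liv-/- hepatocytes. The highest *Cdk1* Liv-/- library came within 1 FPKM of the lowest WT library, and the log2 fold change was -0.55 (SE 0.16, adjusted p = 0.0875 from limma). Sdhd fell by 0.40 (adjusted p = 0.0601 from limma) and Ndufs1 by 0.27 (adjusted p = 0.0823 from limma). Sdhb, which fell in whole liver, was at 118, 126 and 125 FPKM in WT and at 125, 101 and 99.3 FPKM in *Cdk1* Liv-/- hepatocytes. The groups overlapped through replicate 1, and the log2 fold change was -0.19 (adjusted p = 0.301 from limma).

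Several other named subunits were not called in hepatocytes. The log2 fold changes were -0.10 for Ndufv1, -0.16 for Sdha, -0.16 for Uqcrc1, -0.26 for Uqcrfs1, -0.01 for Cox4i1, -0.24 for Cox5a, -0.21 for Atp5a1 and -0.23 for Atp5b. Their adjusted p lay between 0.143 for Uqcrfs1 and 0.981 for Cox4i1 from limma. The smallest and largest changes of complex V were -0.27 for Atp5d and 0.20 for Atp5sl, neither called.

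A few isoforms of complex IV went the other way. Cox6b2, the isoform of subunit 6b known from testis (ENSMUSG00000051811, chromosome 7, 4751792 to 4753094 on the minus strand, GRCm38), was at 3.71, 2.66 and 3.38 FPKM in WT hepatocytes and at 69.0, 42.8 and 34.9 FPKM in *Cdk1* Liv-/- hepatocytes. Every *Cdk1* Liv-/- library was far above every WT library. The log2 fold change was 3.67 (SE 0.26, adjusted p = 0.00160 from limma). In whole liver Cox6b2 was at 4.03, 6.15 and 3.28 FPKM in WT and at 17.7, 17.3 and 35.8 FPKM in *Cdk1* Liv-/- mice. The highest of these is the library with Xist, and the groups did not overlap. The log2 fold change was 2.23 (SE 0.34, adjusted p = 0.00758 from limma), and Cox6b2 remained called in both compartments under every alternative that included it.

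Cox6b1, the common isoform of the same subunit, was at 259, 261 and 328 FPKM in WT and at 309, 261 and 237 FPKM in *Cdk1* Liv-/- hepatocytes. These groups overlapped, with a log2 fold change of -0.07 (adjusted p = 0.771 from limma), and in whole liver it was -0.13 (adjusted p = 0.214 from limma). Cox6b2 thus made up 1.15 ± 0.230% of the summed FPKM of the pair in WT and 15.1 ± 2.86% in *Cdk1* Liv-/- hepatocytes, and 1.32 ± 0.474% and 7.06 ± 2.80% in WT and *Cdk1* Liv-/- whole liver (SD, n = 3 each). The share was larger in every *Cdk1* Liv-/- library than in any WT library.

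Cox7a1, the isoform of subunit 7a known from heart and muscle, was at 1.8, 1.69 and 2.18 FPKM in WT and at 9.68, 4.43 and 4.64 FPKM in *Cdk1* Liv-/- hepatocytes. All 3 *Cdk1* Liv-/- libraries were higher, replicate 1 most of all. The log2 fold change was 1.42 (SE 0.30, adjusted p = 0.0360 from limma), and the call was lost without WT hepatocyte replicate 1 (adjusted p = 0.114). In whole liver its groups overlapped and it was not called (log2 fold change 0.36, adjusted p = 0.201 from limma). Cox7a2, the common isoform, had log2 fold changes of -0.11 in hepatocytes and -0.15 in whole liver, of which the second was called (adjusted p = 0.325 and 0.0657 from limma).

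**Figure D3:**
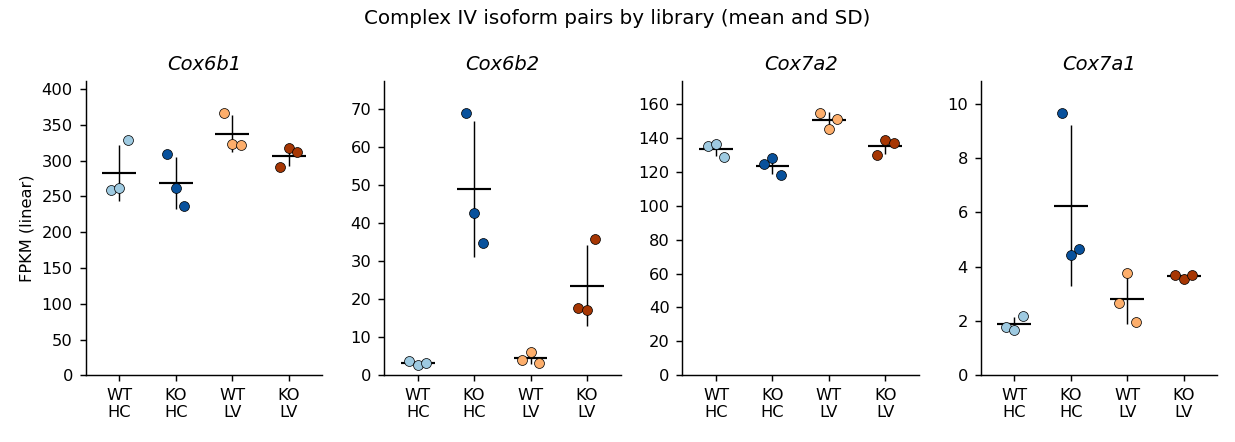
FPKM on linear axes of the common (Cox6b1, Cox7a2) and the other (Cox6b2, Cox7a1) isoforms in each library, with mean and SD (n = 3), labelled as in the plot of nuclear subunits. Cox6b2 rises from 2.66 to 3.71 FPKM in WT HC to 34.9 to 69.0 FPKM in KO HC while Cox6b1 overlaps between the groups.

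Other isoforms stayed at the bottom of the scale. Cox6a2, a heart and muscle isoform, was called higher in whole liver (log2 fold change 0.39, adjusted p = 0.0395 from limma) at levels of 0.08, 0.16 and 0.11 FPKM in WT and 0.42, 0.24 and 0.27 FPKM in *Cdk1* Liv-/-, which is a small fraction of Cox6a1, and its call was lost without WT whole liver replicate 1 (adjusted p = 0.119). Cox6a1 itself fell in whole liver by 0.26 (adjusted p = 0.0188 from limma). Cox4i2, known from lung, and Ndufa4l2, known from hypoxia, overlapped between the genotypes in both compartments. Cox8b was above 0 in 4 of the 12 libraries and at most at 0.34 FPKM. Cox7a2l was called higher in whole liver (log2 fold change 0.25, adjusted p = 0.0787 from limma), but it was 0.03 with size factors (adjusted p = 0.844).

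The 13 genes of mitochondrial DNA need a look at their sequences first, because some have near-identical copies in nuclear DNA. A block on chromosome 1, from 24611535 to 24616197 on GRCm38, holds annotated copies of 7 of them on the minus strand, and every stretch of 75 bases, the read length, of 5 of these copies also occurs in the mitochondrial gene. The copies of mt-Co2, mt-Atp6, mt-Co3 and mt-Nd4l begin at the first base of the gene and lack only its last bases. The other copies are those of mt-Nd3, mt-Nd4 and mt-Co1. The last 30 bases of each gene and of its copy (Gm28661, Gm10925, Gm28437 and Gm10222) are printed to show this, in gene orientation, with the bases that the copy lacks in capitals.
mt-Co2: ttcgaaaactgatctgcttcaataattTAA
Gm28661: tatttcgaaaactgatctgcttcaataatt
mt-Atp6: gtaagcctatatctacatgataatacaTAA
Gm10925: ctagtaagcctatatctacatgataataca
mt-Co3: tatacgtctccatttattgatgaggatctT
Gm28437: ctatacgtctccatttattgatgaggatct
mt-Nd4l: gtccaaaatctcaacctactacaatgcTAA
Gm10222: tacgtccaaaatctcaacctactacaatgc

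The rows of such a gene and its copy cannot be told apart from reads of 75 bases, and RSEM divided the reads between them. The row of mt-Co2 held 40.2 to 77.8 FPKM in WT hepatocytes, but together with its copy 14232 to 16702 FPKM. The row of mt-Co3 held 124 to 152 FPKM there, and 15418 to 17880 FPKM with its copy. That of mt-Atp6 held 592 to 795 FPKM, and 18144 to 20394 FPKM with its copy. With the copies added, complex IV and V genes joined mt-Co1, mt-Cytb and mt-Atp8 among the highest of the set. The rows of the 13 genes made up 8.45% to 15.05% of the summed FPKM of a library, and with the copies 14.9% to 25.9%. Adding the copies was chosen after the data were seen.

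**Figure D4:**
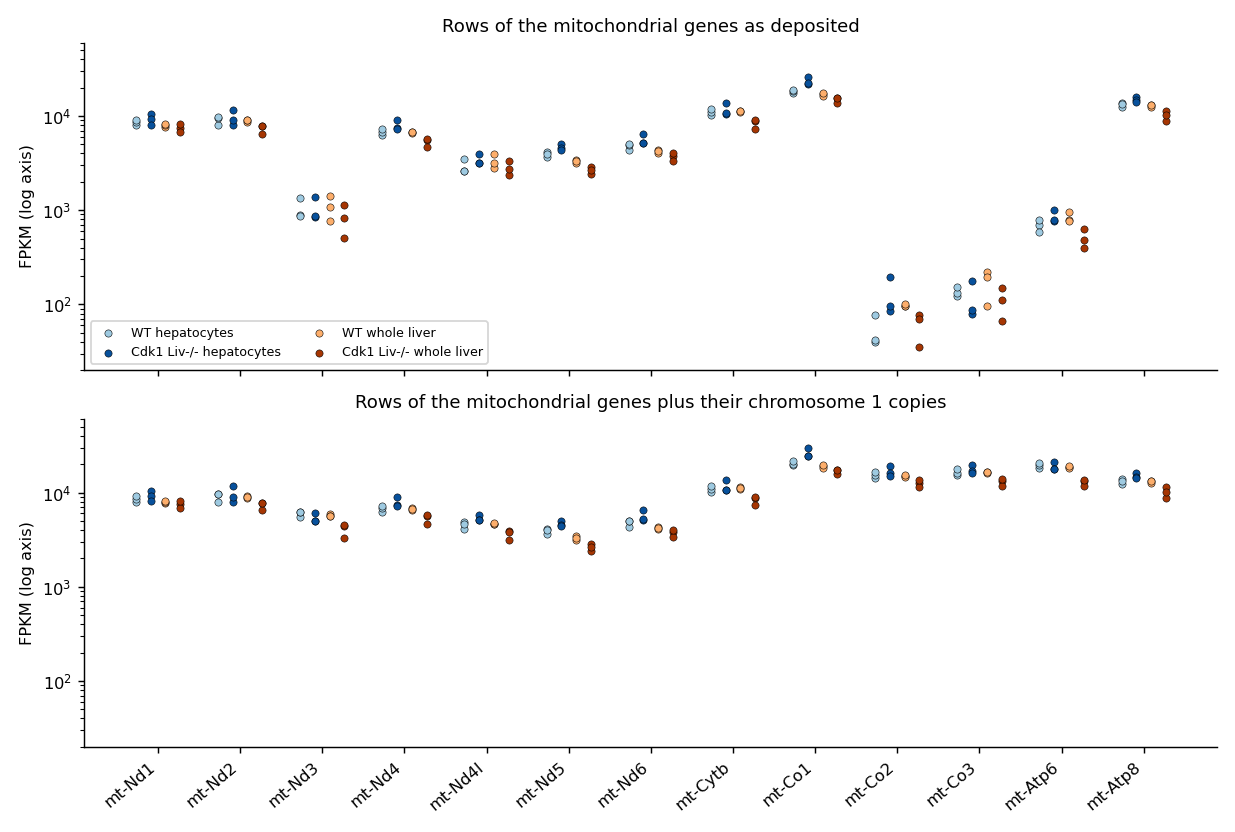
FPKM on a log axis of the 13 mitochondrially encoded genes in each of the 12 libraries, as deposited (top) and with the chromosome 1 copies added, weighted by length (bottom). The mt-Co2 row moves from 35.1 to 197 FPKM to 11322 to 19266 FPKM over all libraries.

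The mitochondrially encoded genes did not follow the nuclear genes in hepatocytes. None of the 13 was called in either direction with limma at the adjusted p, their median log2 fold change was 0.22 against -0.19 for the nuclear genes, and 11 of 13 were above 0, or 10 with size factors. In 5 of them, mt-Nd5, mt-Nd6, mt-Co1, mt-Co2 and mt-Atp8, the *Cdk1* Liv-/- group was entirely above the WT group, as in 20.6% of all genes tested, and in none was it entirely below, as in 13.4%. At an unadjusted p under 0.05, 1 of them was higher, mt-Co2 with 0.0222, where 17.4% of all genes were, whose row the copy makes uncertain, and a two-sample test with q-values called 2 higher, as it did 14.9% of all genes. With the copies added the median was 0.12 and again none was called. Without *Cdk1* Liv-/- hepatocyte replicate 1 the row of mt-Co3, which shares reads with its copy, was called lower (log2 fold change -0.70, adjusted p = 0.0359 from limma), the median was 0.13 and 9 of 13 were above 0. Without WT hepatocyte replicate 2 the row of mt-Co2 was called higher (adjusted p = 0.0843 from limma).

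In whole liver all 13 had a log2 fold change below 0, with a median of -0.34. Those called lower were mt-Nd4, mt-Nd5, mt-Cytb, mt-Co2 and mt-Atp6, 5 of 13, where 7.53% of all genes tested were called lower. With size factors 8 were called, where 16.4% of all genes were, and with the copies added 7. Leaving out 1 library gave 1 call without WT whole liver replicate 1, 2 or 3, 3 without *Cdk1* Liv-/- replicate 1, 7 without replicate 2 and 1 without replicate 3. In these fits 4.94%, 5.04% and 6.55% of all genes were called lower without a WT replicate, and 7.45%, 6.87% and 5.71% without a *Cdk1* Liv-/- replicate, so a single call of 13 was near the share of all genes.

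mt-Nd5, a proton-pumping subunit of complex I that has no copy in the block, was at 3637, 4119 and 3955 FPKM in WT and at 5002, 4571 and 4405 FPKM in *Cdk1* Liv-/- hepatocytes. In whole liver it was at 3439, 3156 and 3310 FPKM in WT and at 2871, 2424 and 2654 FPKM in *Cdk1* Liv-/-. It was higher in all *Cdk1* Liv-/- hepatocyte libraries and lower in all *Cdk1* Liv-/- whole liver libraries. The log2 fold changes were 0.26 (SE 0.15, adjusted p = 0.302 from limma) and -0.32 (SE 0.10, adjusted p = 0.0570 from limma). mt-Nd5 overlaps mt-Nd6 on the other strand, and the sources used here do not say which strand was counted. Across all members, 32 of 97 overlap a gene on the opposite strand.

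mt-Co1, the catalytic subunit of complex IV, was at 17671, 18240 and 18795 FPKM in WT and at 25991, 22013 and 22247 FPKM in *Cdk1* Liv-/- hepatocytes, and at 17065, 16308 and 17438 FPKM in WT and at 15457, 13879 and 15377 FPKM in *Cdk1* Liv-/- whole liver. The libraries again did not overlap in either compartment. A copy in the block, Gm29216, holds 27.5% of the 75-base stretches of mt-Co1, so this row is uncertain too. With the copy added it was at 19617 to 21474 FPKM in WT and 24152 to 29484.5 FPKM in *Cdk1* Liv-/- hepatocytes. In whole liver it was then at 18169 to 19398 and 15640 to 17448 FPKM, again without overlap. As deposited, the log2 fold changes of 0.36 and -0.19 were not called (adjusted p = 0.413 and 0.367 from limma). In hepatocytes mt-Co1 was called higher without the trend in limma (adjusted p = 0.0862) and by the two-sample test (q = 0.0546). mt-Cytb, the only complex III subunit of mitochondrial DNA, overlapped in hepatocytes (log2 fold change 0.08, adjusted p = 0.849 from limma) and fell in whole liver by 0.42 (SE 0.14, adjusted p = 0.0653 from limma). mt-Nd4 fell in whole liver by 0.34 (adjusted p = 0.0847 from limma).

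The remaining rows ranged more widely. mt-Atp6, part of the proton channel of complex V, fell in whole liver by 0.76 (SE 0.19, adjusted p = 0.0294 from limma) and still fell with its copy added, by 0.54 (adjusted p = 0.0306). mt-Co2 fell there by 0.76 (adjusted p = 0.0938 from limma) but by 0.25 with its copy added, which was not called (adjusted p = 0.195). mt-Nd1, mt-Nd2, mt-Nd3, mt-Nd4l, mt-Nd6, mt-Co3 and mt-Atp8 were not called in whole liver as deposited, with log2 fold changes from -0.63 for mt-Co3 to -0.09 for mt-Nd1. In hepatocytes, mt-Nd3 and mt-Co3 were the ones below 0 as deposited, at -0.01 and -0.35. With its copy added mt-Co3 turned to 0.08 and mt-Atp6 turned from 0.29 to -0.05, neither called on either scale, so no direction can be given for these rows in hepatocytes.

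An interaction term, in 1 fit of the 12 libraries, compared the change in hepatocytes with that in whole liver. Of the 13 mitochondrially encoded genes, 3 changed more positively in hepatocytes at an adjusted p of at most 0.1, where 2.35% of all genes tested were called in that direction and 7.49% in the other, and all 13 differences were above 0 with a median of 0.50. They were mt-Nd5 with a difference of 0.58 on the log2 scale (SE 0.15, adjusted p = 0.0693 from limma), mt-Co2 with 1.95 (SE 0.52, adjusted p = 0.0707) and mt-Atp6 with 1.05 (SE 0.26, adjusted p = 0.0598). With the copies added, mt-Nd5 kept its call (adjusted p = 0.0648), mt-Co2 and mt-Atp6 lost theirs (adjusted p = 0.312 and 0.169) and mt-Nd4l gained one (difference 0.61, adjusted p = 0.0719). Of the nuclear members Cox6b2 was called, with a difference of 1.44 (SE 0.46, adjusted p = 0.0985 from limma), and the median difference of the nuclear members was 0.05 beside -0.11 for all genes. It was 0.19 beside 0.01 with size factors, and -0.03 without *Cdk1* Liv-/- hepatocyte replicate 1. Size factors gave the same counts, 3 and 1, where 3.15% of all genes were called in that direction and 2.83% in the other. With single libraries left out, the count of mitochondrially encoded genes called ranged from 0 to 3, and it was 0 without WT hepatocyte replicate 3, without any 1 of the WT whole liver replicates or without *Cdk1* Liv-/- whole liver replicate 2. In the fits with 0 calls, between 0.201% and 1.29% of all genes were called in that direction.

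The balance of the 2 genomes was also read within each library, where a factor common to all genes cancels. The summed FPKM of the mitochondrially encoded rows was 5.96, 6.31 and 6.67 times that of the nuclear members in WT hepatocytes and 8.45, 8.20 and 8.39 times in *Cdk1* Liv-/- hepatocytes. All *Cdk1* Liv-/- hepatocyte libraries, including replicate 1, lay above all WT libraries. In whole liver the ratio was 5.34, 5.17 and 5.55 in WT and 5.82, 4.74 and 5.52 in *Cdk1* Liv-/-, with overlap. With the copies added, the ratio was 10.96 ± 0.649 in WT and 13.8 ± 0.146 in *Cdk1* Liv-/- hepatocytes, and 9.26 ± 0.318 and 8.997 ± 0.846 in whole liver (SD, n = 3 each). In hepatocytes the mitochondrially encoded sum as deposited was 74704 to 84556 FPKM in WT and 86142 to 105085 FPKM in *Cdk1* Liv-/-. With the copies added these sums overlapped, at 129602 to 147422 and 142488 to 173430 FPKM. Replicate 1 was the highest *Cdk1* Liv-/- hepatocyte library on both scales. The sums are given as a description, with no test.

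**Figure D5:**
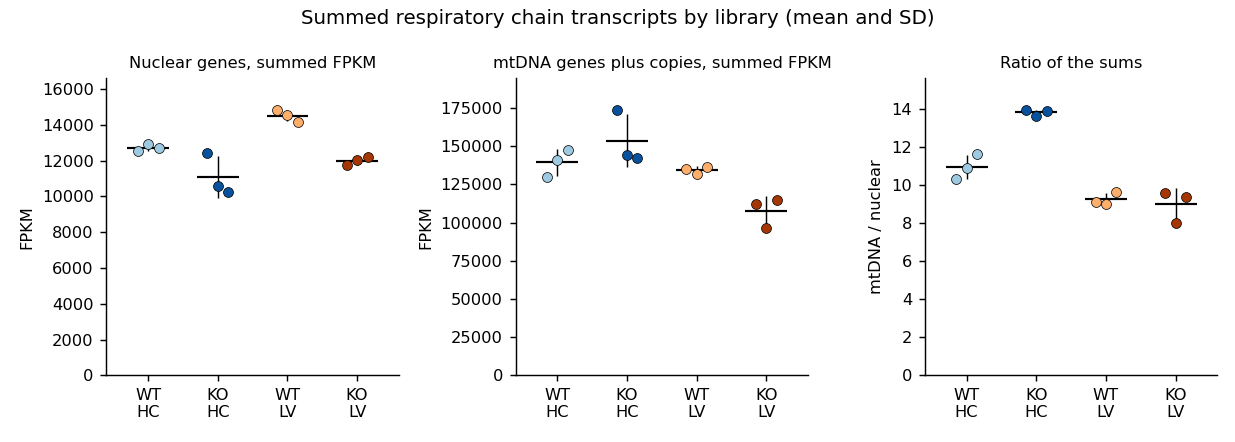
Summed FPKM of the nuclear members (left) and of the mitochondrially encoded genes with their copies (middle), and the ratio of the sums (right), in each library with mean and SD (n = 3), labelled as in the plot of nuclear subunits. The ratio lies between 10.3 and 11.6 in WT HC and between 13.7 and 13.9 in KO HC, and overlaps between WT LV and KO LV.

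Some nuclear members also share reads with processed pseudogenes. Annotated genes with a mean of at least 10 FPKM that hold at least 50% of their own 75-base stretches in a member were found for 7 members. Atp5g2 stood at 13.4 FPKM beside 178 FPKM for Gm10175, Ndufb4 at 17.3 beside 113 FPKM for Gm3244 and Cox7c at 143 beside 603 FPKM for Gm12338. The other members were Atp5g1, Atp5j, Atp5l and Ndufs5. Their levels are uncertain, and of these Atp5g1 and Atp5j were among the genes called lower in whole liver.

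Nuclear members lay lower in WT hepatocytes than in WT whole liver, with few calls. Their median difference was -0.18 (hepatocytes against whole liver) beside -0.10 for all genes, or -0.06 with size factors. Of the 81, 45 were lower and 0 higher at an unadjusted p under 0.05, where 16.1% of all genes were lower and 2.77% higher, and 6 were called lower in hepatocytes, where 1.42% of all genes tested were called lower and 0.104% higher. These were Atp5l, Atp5e, Atp5h, Atp5k, Cox5b and Uqcrh, with adjusted p from 0.0516 to 0.0937 from limma. None of them was called with size factors, where 0.391% of all genes were lower and 0.0633% higher. Without WT hepatocyte replicate 3 the count was 28, where 15.3% of all genes were called lower. It was 0 without WT hepatocyte replicate 1 or 2, where 0% and 0.0230% of all genes were. The count was also 0 without WT whole liver replicate 1 or 2 (0.178% and 0.0288%), and 1 without WT whole liver replicate 3 (0.328%). None of the 13 mitochondrially encoded genes was called by limma, with 1 higher and 1 lower at an unadjusted p under 0.05, and their median difference was 0.01. Without WT hepatocyte replicate 2, 1 of them was called lower, where 0.0230% of all genes were.

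Genes that build and supply the chain were counted in the same fits, against 6.61% of all genes lower and 12.1% higher in hepatocytes, and 7.53% lower and 38% higher in whole liver. With size factors these shares were 8.13% and 9.83% in hepatocytes and 16.4% and 17.9% in whole liver. The whole liver counts of these lists moved strongly with that scaling, so both are given, and no test compared one list with another.

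Of 77 mitochondrial ribosomal protein genes, 12 were lower and 1 higher in *Cdk1* Liv-/- hepatocytes, or 13 and 0 with size factors. In whole liver 11 were lower and 13 higher as deposited, with a median of 0.03, and 47 lower and 1 higher with size factors, with a median of -0.19. Mrpl48 had the lowest value in both, at -0.98 in hepatocytes and -0.66 in whole liver (adjusted p = 0.00967 and 0.00413 from limma). Next were Mrps36 in hepatocytes, at -0.70 (adjusted p = 0.0556 from limma), and Mrpl14 in whole liver, at -0.48 (adjusted p = 0.00251 from limma). The highest were Mrpl15 in hepatocytes, at 0.37 (adjusted p = 0.0379 from limma, 0.122 with size factors), and Mrps6 in whole liver, at 0.50 (adjusted p = 0.0188 from limma, 0.0726 with size factors).

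Of 24 genes of mitochondrial DNA expression, 2 were lower and 0 higher in hepatocytes, namely Mterf3 and Ssbp1, and 3 and 0 with size factors. In whole liver 4 were lower and 1 higher as deposited, and 14 lower and 0 higher with size factors. Hsd17b10, a subunit of mitochondrial RNase P, fell there by 0.43 (adjusted p = 0.00506 from limma). Fastkd2 was at 0.45 (adjusted p = 0.0450 from limma) and was not called with size factors (0.24, adjusted p = 0.211).

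Among the genes that supply electrons, 20 electron carriers and feeders were tested. Of these, 3 were lower in hepatocytes on both scales, 6 in whole liver as deposited and 11 there with size factors, and none was higher. Etfdh, which passes electrons from fatty acid oxidation to ubiquinone, fell in hepatocytes by 0.52 (adjusted p = 0.0224 from limma), and Coq9 of ubiquinone synthesis fell by 0.43 in hepatocytes and by 0.61 in whole liver (adjusted p = 0.0179 and 0.00203 from limma). Of 13 tricarboxylic acid cycle genes, 1 was lower and 1 higher in hepatocytes, or 1 and 0 with size factors. In whole liver 6 were lower as deposited and 10 with size factors, and 0 were higher on either scale. Suclg1, a subunit of succinyl-CoA ligase, fell by 0.42 in hepatocytes and by 0.47 in whole liver (adjusted p = 0.0943 and 0.00353 from limma). Fh1, fumarate hydratase, was at 0.45 in hepatocytes (adjusted p = 0.0633 from limma) and was not called with size factors (0.38, adjusted p = 0.123).

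Assembly factors had few calls as deposited and more lower calls with size factors in whole liver. Of 15 complex I assembly factors, 1 was higher and 0 lower in hepatocytes, or 0 and 1 with size factors. In whole liver 1 was higher and 3 lower as deposited, and 0 higher and 9 lower with size factors. Ndufaf6 and Ecsit fell there by 0.57 and 0.41 (adjusted p = 0.00498 and 0.00889 from limma). Of 21 tested complex IV assembly factors, 1 was lower in hepatocytes, or 2 with size factors, and 0 were higher. In whole liver 3 were lower and 2 higher as deposited, and 14 lower and 1 higher with size factors. The higher ones as deposited were the copper chaperone Cox17 at 0.25 and Cox19 at 0.40 (adjusted p = 0.0122 and 0.0157 from limma), and with size factors Cox17 was at 0.03 (adjusted p = 0.659) and Cox19 at 0.19 (adjusted p = 0.0998).

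Of the 6 complex III factors, 1 was lower and 2 higher in whole liver as deposited, and 3 lower and 0 higher with size factors. Of the 3 complex V factors 1 was lower there, or 2 with size factors. Of the 4 complex II factors none was called in either compartment by limma as deposited, nor was any at an unadjusted p under 0.05, while 2 were called lower in whole liver with size factors. Of 9 tested regulators, none was called in hepatocytes by limma, and again none was at an unadjusted p under 0.05. In whole liver 3 were higher and 2 lower, with Ppara, the fatty acid receptor, at -1.34 and Ppargc1b at -0.53 (adjusted p = 0.0113 and 0.0168 from limma), and Pprc1 at 0.64 and Gabpb1 at 0.34 (adjusted p = 0.0130 and 0.0532 from limma). With size factors the split was 1 higher and 4 lower, and Gabpb1 was not called (0.13, adjusted p = 0.351 from limma).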

How the data were processed

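Polyadenylated RNA of 12 mouse libraries was sequenced by the authors as single-end reads of 75 bp with a stranded kit. Per the labels, STAR and RSEM 1.2.31 were run on mm10. No source used here names the annotation release or the strand setting of the counting. The deposited FPKM values are listed to 2 decimals and were not normalized between libraries. Genes were placed by Ensembl identifier in GENCODE M21 on GRCm38, where all 97 members were found.

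Differences were tested with limma 3.58.1 in R 4.3.3, two-sided, with eBayes and a trend, on log2(FPKM + 0.5) within each compartment, for genes whose FPKM averaged 0.1 or more. The interaction and WT hepatocytes against WT whole liver were tested in the same way. The pipeline was tested on simulated data over 17386 genes, of which 200, drawn at any level, were changed. A log2 change of 0.5 was recovered in 9% of 100 genes in the hepatocyte and in 47% in the whole liver design. For a change of 1 these shares were 36% and 84%. False calls made up 2.17% and 7.75% of the calls. Far more genes were called in the data, so these shares do not give the power for the members. Depth was estimated from the steps of low FPKM values, of which 69.4% to 74.1% lay within 0.15 reads of a whole number, where chance gives 30%. Too few values were whole to use a count test. FPKM are shares of a library, so a change in abundant transcripts moves all others. Copies were called from shared 75-base stretches and added with weights by length. Genes named in the text were the 13 mitochondrially encoded genes, 10 anchor subunits, the isoform sets, the largest and smallest change of each complex, and the 2 largest and 2 smallest of each other list that is discussed. Not all of these are repeated for every comparison. The members and lists were chosen with earlier results of these data known. No sample was left out. Other pseudocounts (0.1 and 1), filters, scalings, spread models and samples left out in turn were tried as alternatives.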

Additional observations from a re-analysis of the deposited data

Results flagged for a closer look

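The change differed between hepatocytes and whole liver, by the interaction in limma over 12 libraries, for 4 of the 94 members tested, all with a more positive change in hepatocytes, where 2.35% of all genes were called in that direction and 7.49% in the other. The difference, as change in hepatocytes minus change in whole liver on the log2 scale, was 1.44 for Cox6b2, 0.58 for mt-Nd5, 1.95 for mt-Co2 and 1.05 for mt-Atp6. Cox6b2 rose in both compartments, and its adjusted p ranged from 0.0735 to 0.200 over the alternatives. For mt-Nd5 all libraries of *Cdk1* Liv-/- hepatocytes were higher and all of *Cdk1* Liv-/- whole liver lower than WT, with adjusted p from 0.0479 to 0.182. For mt-Co2 and mt-Atp6 the adjusted p ranged from 0.0263 to 0.312 and from 0.0289 to 0.169, and both were not called once the chromosome 1 copy was added.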

How the results depend on the processing

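The medians of nuclear and mitochondrially encoded genes for *Cdk1* Liv-/- against WT kept their sign in both compartments under the alternatives tried, while the median interaction of nuclear genes did not. Counts of calls did depend on settings. For nuclear genes lower in hepatocytes (18) the count was 7 with no filter on low values (2.55% of all genes). It was 5 of 81 without the trend, which is near the 6.23% of all genes lower in that fit. With a log2 fold change of at least 1 it was 0 (2.17%), and with a library left out 1 to 26 (2.31% to 7.04%). For those higher (2) it was 0 among liver subunits only (12.1% of all genes) and 1 to 2 with a library left out (6.65% to 9.33%). For mitochondrially encoded genes higher in hepatocytes (0) it was 1 with a mean FPKM of at least 1 or with either equal sum. The gene called there was mt-Co2, beside 11.8% to 14.7% of all genes. Without the trend it was 1 (mt-Co1, beside 11.8%), and by the two-sample test with q-values 2 (mt-Co1 and mt-Nd5, beside 14.9%). With a library left out it was 0 to 1 (6.65% to 9.33%). Of those lower (0) it was 1 without *Cdk1* Liv-/- hepatocyte replicate 1 (3.82%). In whole liver, nuclear genes lower (55) numbered 0 at a log2 fold change of at least 1 (1.001% of all genes). With a library left out they numbered 45 to 55 (4.94% to 7.45%). Nuclear genes higher (3) numbered 1 at that fold change (4.59% of all genes) and 0 among liver subunits only (38%). With a library left out they numbered 1 to 4 (25.9% to 35.6%), so these higher counts were below the share of all genes. Mitochondrially encoded genes lower in whole liver (5) numbered 1 with no filter (4.10% of all genes), and 8 with size factors (16.4%) or without the trend (7.39%). They numbered 0 at that fold change (1.001%), 9 by the two-sample test (12.1%) and 1 to 7 with a library left out (4.94% to 7.45%). For the interaction, nuclear genes higher (1) numbered 0 with a pseudocount of 0.1 (1.98% of all genes), no filter (0.846%), no trend (2.32%) or liver subunits only (2.35%). With the same sum over genes not encoded by mitochondrial DNA they numbered 2 of 81, near the 2.47% of all genes. With a library left out they numbered 0 to 1 (0.201% to 2.80%). Mitochondrially encoded genes (3) numbered 1 with no filter (0.846% of all genes), and 6 with the filter raised to a mean FPKM of 1 (2.98%) or without the trend (2.32%). They numbered 5 with the same sum over all genes (2.24%), and 0 to 3 with a library left out (0.201% to 2.80%). For WT hepatocytes against WT whole liver, nuclear genes lower (6) numbered 3 with a mean FPKM of at least 1 (0.66% of all genes). They also numbered 3 with the same sum over all genes (0.638%), and 0 with size factors (0.391%) or the fold change (0.426%). The count was 2 with the same sum over genes not encoded by mitochondrial DNA (0.587%). Without the trend it was 1 of 81, near the 0.984% of all genes, and with a library left out 0 to 28 (0% to 15.3%). The cause of these moves was not tested.

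In whole liver the median of the nuclear genes was -0.48 with size factors and -0.23 with the same sum over all genes, and that of the mitochondrially encoded genes was -0.56 with size factors. With a library left out, these medians ranged from -0.27 to -0.24 and from -0.38 to -0.25, and in hepatocytes from -0.28 to -0.14 and from 0.13 to 0.28. The mean summed FPKM of the mitochondrially encoded genes as deposited was 80289 in WT and 92601 in *Cdk1* Liv-/- hepatocytes, and 77694 and 64226 in whole liver. With size factors they were 88051 and 96362, and 77936 and 55271.5. With the same sum over genes not encoded by mitochondrial DNA they were 80839 and 96630, and 75596 and 62834. With copies added, chosen after seeing the data, they were 139371 and 153380, and 134370 and 107845. *Cdk1* Liv-/- means were higher in hepatocytes and lower in whole liver each time, but with copies added the hepatocyte libraries overlapped. In hepatocytes, values that were not called turned sign for mt-Atp6 and mt-Co3 with copies added, for mt-Nd2 with size factors and for mt-Nd3 with either equal sum. Ndufa2 in whole liver turned from 0.02 to -0.20 with size factors.

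Replicate numbers were not taken as pairs. Deviations of same-numbered libraries correlated at -0.32 to 0.10 between genotypes, at 0.05, 0.07 and 0.24 between WT hepatocytes and WT whole liver, and at -0.12 to -0.03 between *Cdk1* Liv-/- hepatocytes and whole liver. With the replicate number as a block, nuclear genes lower numbered 1 in hepatocytes, where 2.35% of all genes were lower. In whole liver they numbered 46, where 5.99% were. Nuclear genes higher in whole liver numbered 1, where 32.0% of all genes were higher. Mitochondrially encoded genes lower there numbered 2, beside the same 5.99%. With that block, the interaction gave 0 nuclear and 0 mitochondrially encoded genes, where 1.16% of all genes were called higher and 2.62% lower. WT hepatocytes against WT whole liver gave 0 nuclear genes and 0 over all genes. Depth limits the precision of weakly expressed isoforms such as Cox7a1.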
